A study of Drosophila melanogaster with 6 samples.

Results

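Of the 251 transcripts annotated as small nucleolar RNAs (snoRNAs) in the table of short RNAs, 77 have names that tie them to no site in 18S or 28S rRNA, beside 454 other transcripts of any kind in the table. They are the orphan, processing and Cajal-body guide RNAs. The rule used annotation alone and no measured value, but the choice was made with earlier results of these data known. The Ensembl BDGP6 biotype had to be snoRNA, and the gene name could not begin with Me18S, Me28S, Psi18S or Psi28S. Those are the prefixes of guides for methylation (Me) or pseudouridylation (Psi) of those rRNAs. By name they comprise 2 copies of U3, 15 RNAs named after vertebrate (U) or yeast (snR) snoRNAs, 1 guide for 5.8S rRNA and 16 guides for spliceosomal snRNAs, of which 14 are annotated as small Cajal-body RNAs (scaRNAs). The rest are 11 orphans of the Or-CD series, 4 orphans of the Or-aca series and 28 others, most of them named after a neighbouring gene or by a number. The word orphan does not cover them all, since the vertebrate relatives of U27, U29, U31, U49 and U76 are rRNA methylation guides.

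Guide RNAs act inside small ribonucleoproteins. Box C/D RNAs pair with a target and direct 2′-O-methylation by fibrillarin, box H/ACA RNAs direct pseudouridylation, and scaRNAs do the same to spliceosomal snRNAs in Cajal bodies. U3 and U14 are needed for cleavage of the rRNA precursor rather than for base modification alone, and an orphan is a guide with no known target. Most fly snoRNAs are cut out of the introns of genes that RNA polymerase II transcribes, some of which (the Uhg genes, for U snoRNA host genes) have no evident protein product, whereas U3 of animals has its own promoter and is also a product of RNA polymerase II. The study counts several fly snoRNAs among the targets of RNA polymerase III, and which of the RNAs described here they include was not identified.

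The study asked which short RNAs respond when RNA polymerase III (Pol III), the enzyme that makes tRNAs and 5S rRNA, is partly inactivated. Midguts were dissected from female Drosophila melanogaster at 1 week of age. The 3 mutant libraries came from flies labelled dC53EY22749, which are heterozygous for the P-element insertion EY22749 in Polr3D (formerly dC53), a gene for a Pol III-specific subunit, and the 3 control libraries came from White Dahomey wild-type flies. Both share the outbred Dahomey background, which is free of Wolbachia, and the insertion was backcrossed into flies of that background with an eye-colour mutation (white or vermilion) as a marker. The model is a single insertion allele in 1 copy, since homozygotes die, and it is present in every cell of the fly. Guts of several flies were pooled per extraction, so each library averages over animals and over all midgut cell types. The table lists RNAs below 300 bases, so neither the Polr3D mRNA nor markers of gut cell types could be checked. In such bulk RNA, fewer cells of a type and less RNA per cell cannot be told apart.

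Library totals ran from 13465392 to 16891428 estimated counts, and between 63086 and 82125 of them fell on the 77 guide RNAs. The share of 5.8S rRNA in the listed counts was 37.0% ± 1.59 in the mutant and 44.4% ± 0.621 in wild type (SD, n = 3 each), and that of nuclear tRNAs 15.3% ± 0.809 and 10.95% ± 0.321. Levels are given as CPM (counts per 1000000) after TMM scaling, which adjusts library totals to the bulk of transcripts. A CPM value follows 1 RNA across libraries or gives the span of counts, and levels of different RNAs are compared as CPM per 100 bases. That scale assumes that a longer RNA yields more fragments, which was not tested for these libraries. RNA below 200 nucleotides was size-selected, and 4 of the guide RNAs (both U3 copies and CG32479-a and -b) are annotated as longer than that, so their levels beside shorter RNAs carry that limit.

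No guide RNA passed the test between genotypes. Of the 77, 73 had enough counts to be tested, and 0 had an edgeR adjusted p below 0.10 over all 411 transcripts tested, with 0.31 as the lowest value. The background was small too: 5 of the 411 transcripts (1.22%) passed, all of them nuclear tRNAs with higher levels in the mutant. At an unadjusted edgeR p below 0.05 stood 6 guide RNAs (8.22% of those tested), against 14.8% of all transcripts. That share includes the nuclear tRNAs, and among the 331 other transcripts tested it was 9.37%. Of the 6, 4 were lower in the mutant and 2 higher, where 5.35% of all transcripts were lower and 9.49% higher. Without nuclear tRNAs, 20 of the 331 were lower and 11 higher. DESeq2 gave 0 adjusted calls among the guide RNAs, with 4 at that unadjusted level, where 5.66% of all transcripts were called, and limma-voom gave 0, with 7, where 0% were. With the replicate number as a block (3.41% of all transcripts called) or with the snoRNAs of 18S and 28S sites as the scaling reference (5.35%), edgeR also called 0 guide RNAs. The median log2 fold change of the guide RNAs was −0.09, with 50 of 73 (68.5%) below 0. It was −0.05 over all transcripts tested and −0.11 without nuclear tRNAs (65.9% below 0). Over the 170 tested snoRNAs named for 18S or 28S sites it was −0.16. That offset depends on the scaling. With those snoRNAs as the reference, the medians were 0.08 for the guide RNAs and 0.10 for all transcripts, and 28 of the 73 guide RNAs were below 0.

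**Figure D1:**
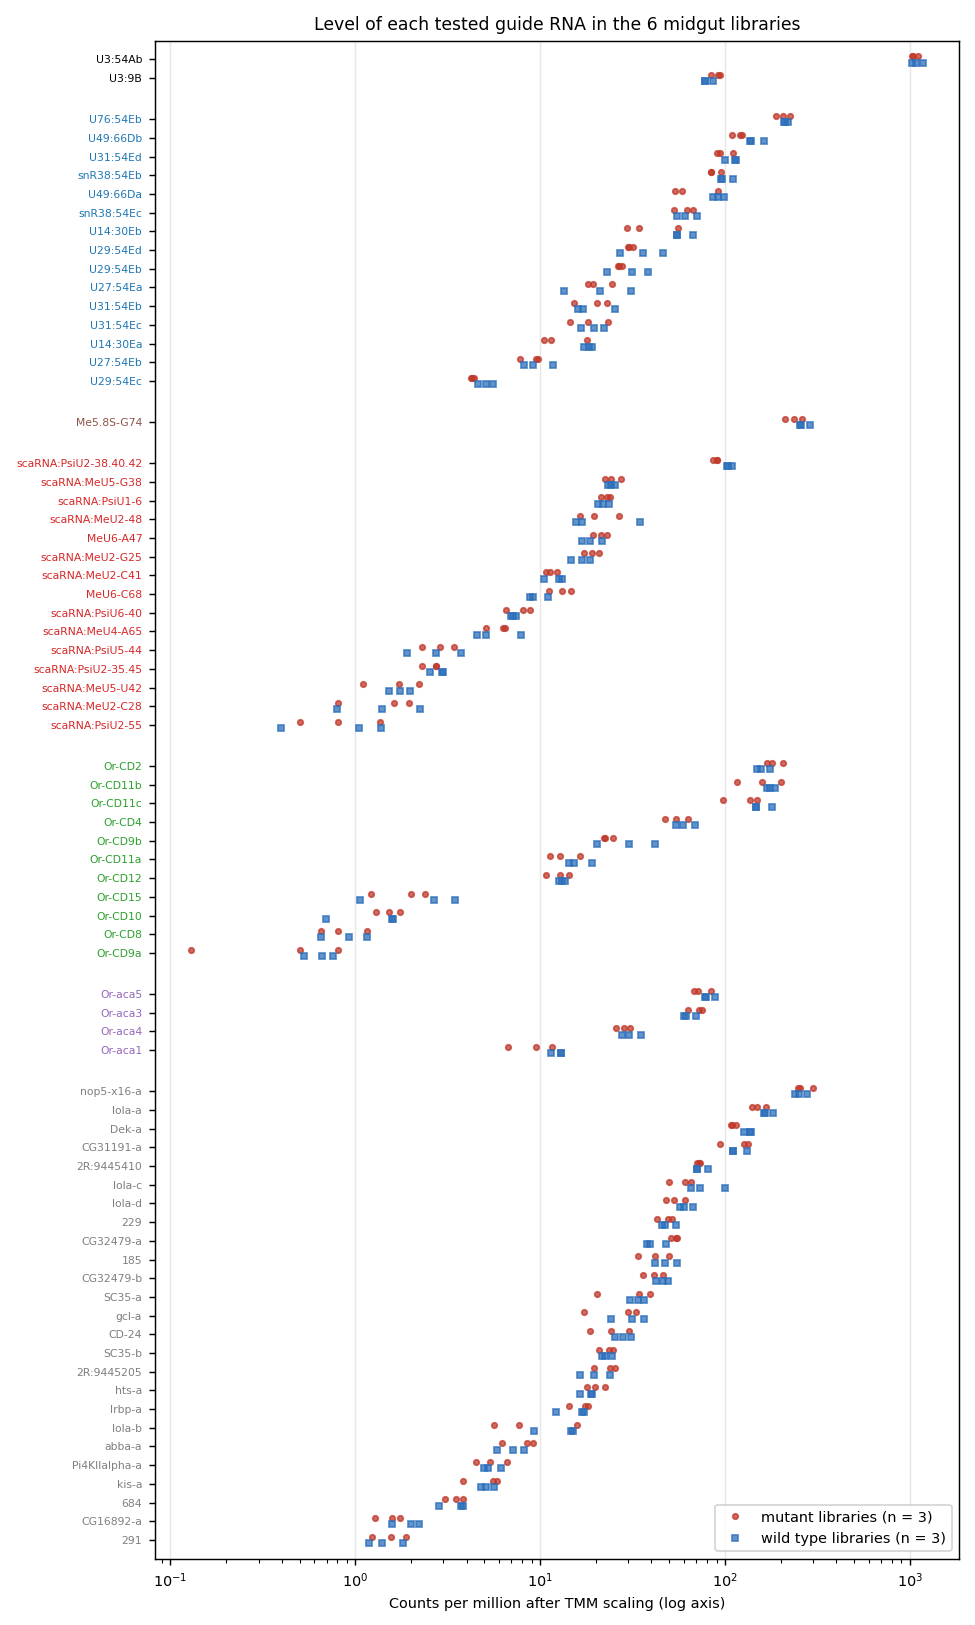
Level of each of the 73 tested guide RNAs in CPM (log axis), 1 point per library, grouped by the kind of RNA and ordered by mean level. Red circles are the 3 mutant libraries and blue squares the 3 wild-type libraries. The RNAs span from 0.481 CPM (Or-CD9a, mutant mean) to 1094 CPM (U3:54Ab, wild-type mean), and for nearly all of them the points of the genotypes are interspersed.

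Differences between genotypes were small beside the span of levels. A 95% interval within a 2-fold change in either direction was found for 64 of the 73, 49 had a log2 fold change within 0.2 of 0, and 1 (U14:30Eb) exceeded 0.5 in size. The 9 RNAs whose interval reached past 2-fold had mean levels of 49.6 CPM or less. Replicates of a genotype varied with a median coefficient of variation of 12.7% in the mutant and 11.6% in wild type. Counts were unevenly spread: the median mean level was 23.0 CPM, 19 RNAs lay below 10 CPM and 12 above 100 CPM, and the 5 with the highest mean CPM held between 40.7% and 44.5% of all guide RNA counts in a library.

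**Figure D2:**
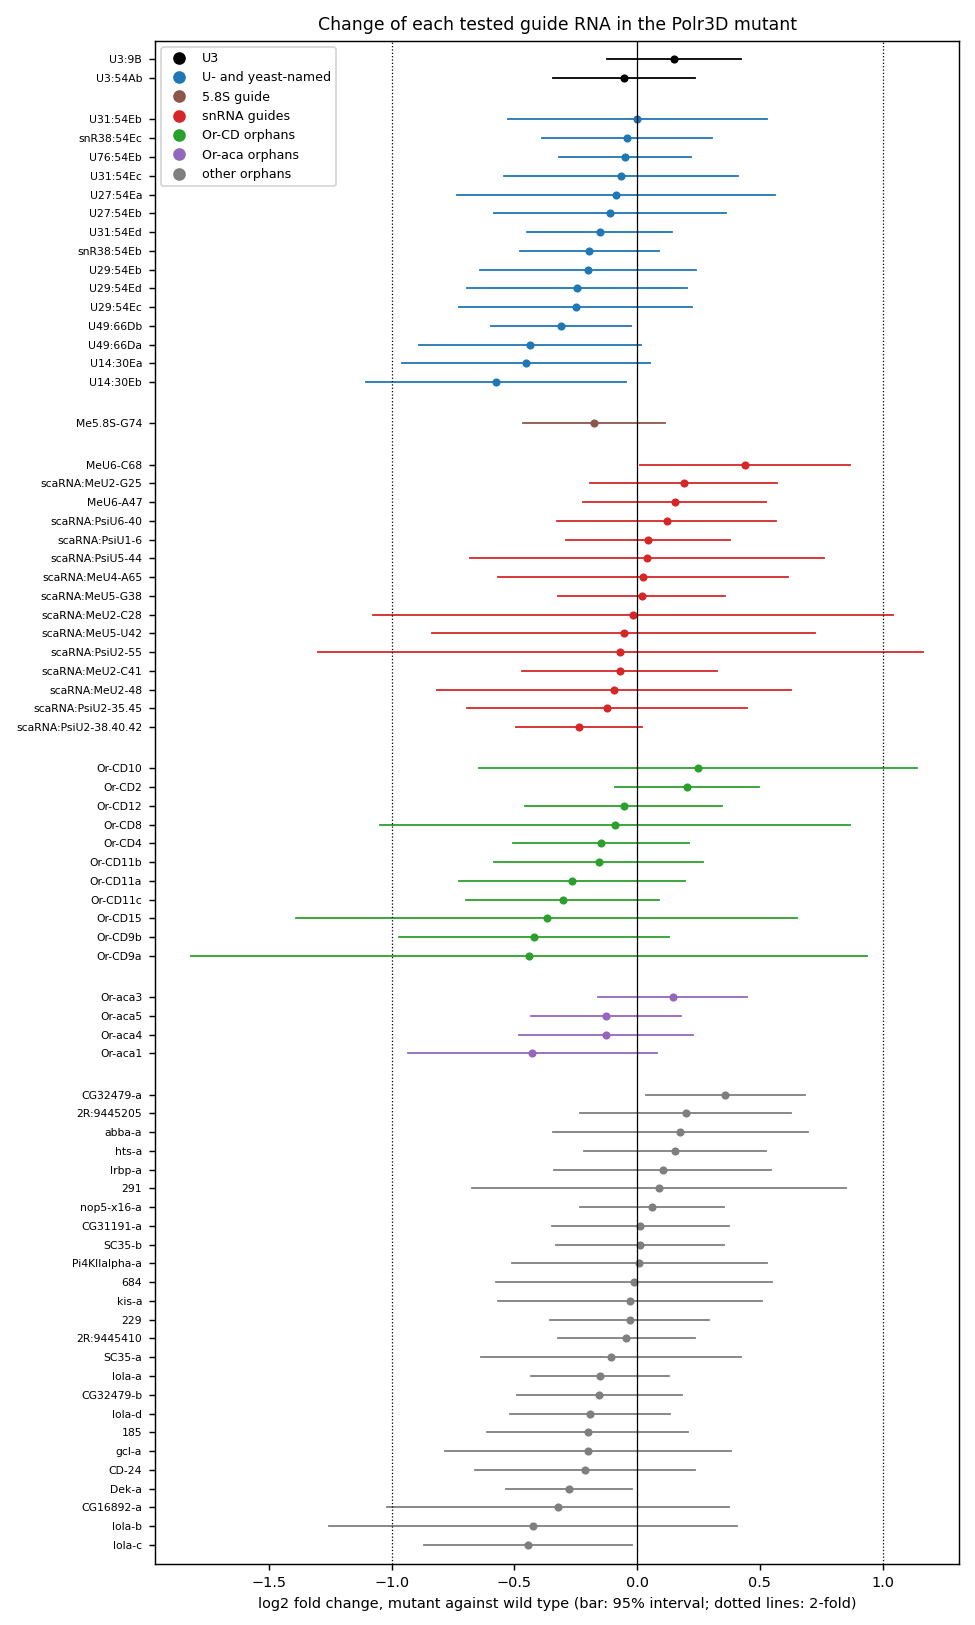
Log2 fold change of the mutant against wild type for each tested guide RNA, with its 95% interval from edgeR (n = 3 libraries each), grouped and coloured by kind. Dotted lines mark a 2-fold change. Estimates run from −0.58 (U14:30Eb) to 0.44 (MeU6-C68), and 64 of 73 intervals stay between the dotted lines.

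U3, which base-pairs with the rRNA precursor and is needed for its early cleavages, was the most abundant of the guide RNAs. Its copy U3:54Ab (FBtr0091605, chromosome 2R, 17145617 to 17145826, plus strand, with no host gene) was at 1025, 1038 and 1101 CPM in mutant replicates 1 to 3 and at 1175, 1083 and 1025 CPM in wild-type replicates 1 to 3. The ranges overlapped, and the log2 fold change was −0.05 ± 0.13 (SE; edgeR adjusted p = 0.835; 95% interval −0.34 to 0.24). The second copy, U3:9B (FBtr0091641, chromosome X, 10348125 to 10348337, plus strand), was at 83.6, 92.0 and 93.5 CPM in the mutant and 86.2, 78.2 and 78.2 CPM in wild type. Mutant replicates 2 and 3 exceeded each wild-type library and replicate 1 did not (log2 fold change 0.15 ± 0.12, edgeR adjusted p = 0.562). Per 100 bases, U3:54Ab was at 502 CPM in the mutant and 521 CPM in wild type and U3:9B at 42.1 and 38.0 CPM.

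The ratio of the copies did not overlap between genotypes. U3:54Ab held 12.3, 11.3 and 11.8 times the counts of U3:9B in the mutant libraries and 13.6, 13.9 and 13.1 times in wild type. An exact two-sided permutation test gave p = 0.1, the smallest that 3 libraries against 3 allow, and 0.6 after adjustment over the 12 ratios computed. Salmon divides reads that fit both copies between them, which makes the ratio less certain than the sum. With the copies summed, the log2 fold change of U3 was −0.04 ± 0.14 (edgeR adjusted p = 0.892; 95% interval −0.35 to 0.28).

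Of the 15 RNAs with vertebrate or yeast names, 14 had a log2 fold change below 0, with a median of −0.19. The test was passed by 0 of them. They share few hosts, with 11 in introns of Uhg1, 2 in Uhg2 and 2 in RpL14, so they are not 15 independent readings. Values below 0 were also common elsewhere, at 80% of the tested snoRNAs named for rRNA sites. Without nuclear tRNAs such values made up 65.9% of all transcripts tested. The sign of values near 0 also depends on the scaling. Among the 15, the lowest values belonged to the copies of U14 and U49. U14 is required for maturation of 18S rRNA in yeast, and both fly copies lie in introns of Uhg2 on chromosome 2L. U14:30Eb (FBtr0079910, 9893946 to 9894026, minus strand) was at 34.2, 29.5 and 55.7 CPM in the mutant and 55.3, 67.5 and 55.2 CPM in wild type, a log2 fold change of −0.58 ± 0.23 (edgeR adjusted p = 0.31). U14:30Ea (FBtr0079909, 9894205 to 9894285, minus strand) was at 11.5, 10.5 and 17.9 CPM against 18.3, 19.0 and 17.2 CPM (−0.45 ± 0.22, adjusted p = 0.365). In both copies mutant replicates 1 and 2 lay below all wild-type libraries and mutant replicate 3 lay among them.

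U49 is a box C/D guide for rRNA methylation in vertebrates, and its fly copies lie in introns of RpL14, the gene for a protein of the large ribosomal subunit, on chromosome 3L. U49:66Db (FBtr0076635, 8601948 to 8602031, plus strand) was at 121, 109 and 123 CPM in the mutant and 162, 138 and 137 CPM in wild type, with no overlap (log2 fold change −0.31 ± 0.13, edgeR adjusted p = 0.31). U49:66Da (FBtr0076634, 8601473 to 8601552, plus strand) was at 58.8, 53.97 and 91.4 CPM against 86.3, 91.1 and 98.5 CPM (−0.43 ± 0.20, adjusted p = 0.337), and again mutant replicate 3 alone reached the wild-type range. With copies summed before the fit, U14 gave −0.54 ± 0.23 (edgeR adjusted p = 0.298) and U49 −0.35 ± 0.14 (adjusted p = 0.295), and 0 of 60 guide RNA features passed where 3.01% of all features did.

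Mutant replicate 3 decided whether any of the guide RNAs was called. Without that library 4 of them were called lower in the mutant: U49:66Da (log2 fold change −0.69 ± 0.13, edgeR adjusted p = 0.0396), U14:30Ea (−0.72 ± 0.19, 0.0668), U14:30Eb (−0.89 ± 0.17, 0.0396) and lola-b (−0.95 ± 0.27, 0.0778). The background then stood at 11.3% of all transcripts tested (47 of 417), and 4.8% in the lower direction, so that 4 of 73 is close to the share of all transcripts. Under the same omission 14 of the snoRNAs named for 18S or 28S sites were called lower and 19 nuclear tRNAs higher, where 0 and 5 were with every library kept. With every library kept, the medians of nuclear tRNAs and of mitochondrial tRNAs were 0.34 and 0.25 on the log2 scale. Why mutant replicate 3 stood nearer to wild type for these RNAs was not tested.

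**Figure D3:**
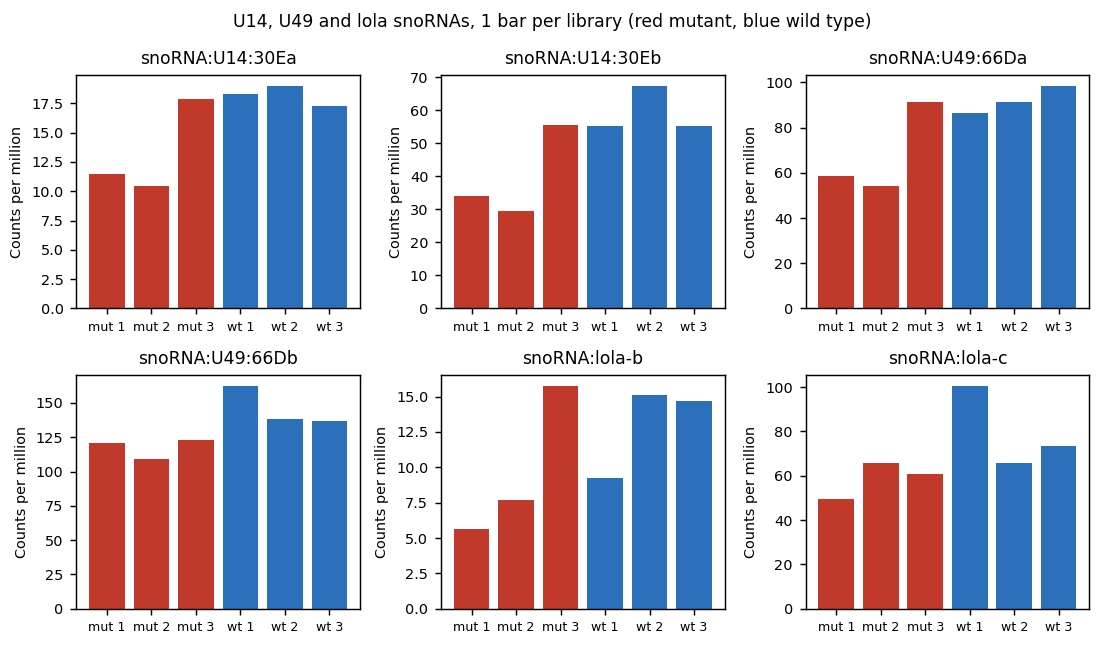
Level in CPM of U14:30Ea, U14:30Eb, U49:66Da, U49:66Db, lola-b and lola-c, 1 bar per library, with mutant replicates 1 to 3 in red and wild-type replicates 1 to 3 in blue; axes start at 0. Mutant replicate 3 is within the wild-type range for both copies of U14 (17.9 and 55.7 CPM) and for U49:66Da (91.4 CPM). For lola-b it is above all wild-type libraries (15.8 CPM against 9.27, 15.1 and 14.7 CPM), whereas U49:66Db is low in all 3 mutant libraries.

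The largest cluster lies in Uhg1 (chromosome 2R, 17699097 to 17703344, plus strand), a host gene of 4248 bases whose introns carry 11 of the guide RNAs: 3 copies each of U29 and U31, 2 each of U27 and snR38, and U76:54Eb. A further 5 listed snoRNAs named for rRNA sites share the gene. Levels per 100 bases ranged 53.8-fold along this single host, from 5.33 CPM for U29:54Ec to 287 CPM for U76:54Eb. U76:54Eb (FBtr0086848, 17700741 to 17700813) was at 224, 205 and 188 CPM in the mutant and 220.1, 208 and 210.4 CPM in wild type (log2 fold change −0.05 ± 0.12, edgeR adjusted p = 0.835). The 11 log2 fold changes ran from −0.25 to 0.00 with a median of −0.11, so the genotypes differed far less than the RNAs of the cluster did. Since these RNAs come from 1 host transcript, they are not independent readings of it.

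Some copies of 1 family within Uhg1 differed in level in every library and others did not. Salmon divides reads that fit several copies between them. The level of a single copy in this cluster is thus less certain than the sum of its family. The U31 copies are annotated at the same length, 67 bases, and U31:54Ed held between 4.76 and 6.53 times the counts of U31:54Ec, its upstream neighbour in the cluster, whereas U31:54Eb and U31:54Ec were near each other at 29.1 and 28.5 CPM per 100 bases. U31:54Ed was at 111, 90.8 and 94.4 CPM in the mutant and 99.9, 115 and 114 CPM in wild type, U31:54Ec at 23.3, 18.2 and 14.5 against 16.7, 19.7 and 22.1 CPM, and U31:54Eb at 23.0, 20.4 and 15.2 against 17.2, 15.9 and 25.3 CPM. U29:54Ed exceeded U29:54Ec 5.86- to 8.25-fold. U29:54Ec was the only RNA of the cluster whose groups did not overlap, at 4.26, 4.23 and 4.38 CPM in the mutant and 4.60, 5.12 and 5.59 CPM in wild type (log2 fold change −0.25 ± 0.21, edgeR adjusted p = 0.577). U29:54Eb was at 26.5, 26.6 and 27.7 against 23.1, 31.3 and 38.4 CPM and U29:54Ed at 30.2, 29.98 and 31.8 against 26.9, 35.9 and 46.1 CPM. In both, the mutant libraries were close together and fell inside a wider wild-type range.

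**Figure D4:**
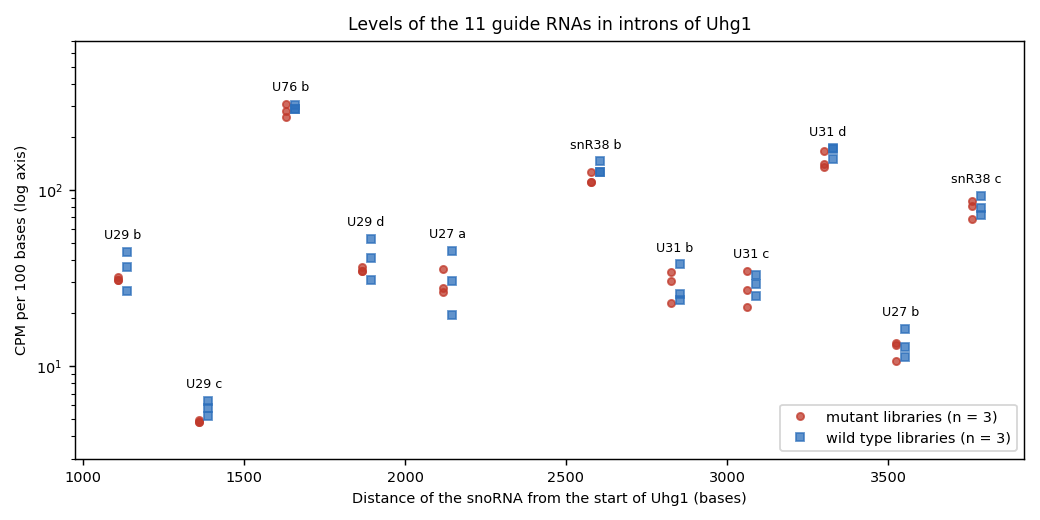
Levels of the 11 guide RNAs in introns of Uhg1, in CPM per 100 bases (log axis), against distance from the start of the host gene in bases; 1 point per library, mutant red and wild type blue, drawn slightly apart. Levels run from 5.33 (U29:54Ec) to 287 (U76:54Eb) CPM per 100 bases with no order along the gene, and the points of the genotypes lie together at each RNA.

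The 1 guide named for 5.8S rRNA, Me5.8S-G74 (FBtr0114342, chromosome 3L, 829922 to 829992, minus strand), is named as a guide that directs methylation of that rRNA. It overlaps an annotated exon of 1 or both of its hosts, Sf3b3 and lncRNA:CR45184. Reads of a host RNA there cannot be told apart from those of Me5.8S-G74. Its level was 236, 212 and 259 CPM in the mutant and 253, 288 and 258 CPM in wild type. One mutant library reached the wild-type range, and the log2 fold change was −0.18 ± 0.13 (edgeR adjusted p = 0.532). At 332 CPM per 100 bases in the mutant and 375 in wild type, it was second to U3:54Ab among the guide RNAs. That rank depends on the length scaling. In plain CPM over all libraries nop5-x16-a was higher, at 262 against 251 for Me5.8S-G74.

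Guides for spliceosomal snRNAs were scarcer per 100 bases. Their median level over both genotypes was 9.64 CPM per 100 bases, beside 38.5 for the RNAs with vertebrate or yeast names, and the highest was 71.0. The spliceosomal RNAs they are named for take part in recognition of introns and in catalysis of splicing. Of the 15 tested, 7 had a log2 fold change below 0 and 8 above, with a median of 0.02. By target the 7 tested guides for U2, the snRNA that pairs with the branch site, ran from −0.24 to 0.19, the 3 for U5 from −0.05 to 0.04, and the 3 for U6, a Pol III product, from 0.12 to 0.44. The single guides for U1 and U4, PsiU1-6 and MeU4-A65, were at 0.04 and 0.02. Guides named for 1 snRNA need not share a host or a sequence, and no test was run over them as a group.

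The guide PsiU2-38.40.42 (FBtr0309773, chromosome 2L, 21177040 to 21177176, minus strand, in bur) was the most abundant scaRNA and the one whose groups did not overlap, at 90.8, 85.9 and 91.1 CPM in the mutant and 109.7, 104 and 102 CPM in wild type. Its log2 fold change was −0.24 ± 0.11 (edgeR adjusted p = 0.355). The U6 methylation guide MeU6-C68 (FBtr0114297) lay in the other direction, at 13.2, 14.7 and 11.2 CPM in the mutant and 10.97, 8.77 and 9.14 CPM in wild type. The lowest mutant and highest wild-type libraries were 11.2 and 10.97 CPM, so the separation was narrow (log2 fold change 0.44 ± 0.19, edgeR adjusted p = 0.328). The other U6 guides, MeU6-A47 and the scaRNA PsiU6-40, overlapped, at 19.4, 21.3 and 22.9 CPM against 16.95, 18.7 and 21.5 CPM for MeU6-A47 and at 8.81, 8.13 and 6.53 against 7.43, 7.18 and 6.98 CPM for PsiU6-40.

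The remaining scaRNAs overlapped between genotypes throughout. MeU5-G38 was at 27.4, 22.4 and 24.1 CPM in the mutant and 23.2, 25.5 and 24.3 CPM in wild type, and PsiU1-6 at 23.8, 23.0 and 21.3 against 21.9, 23.6 and 20.6 CPM. MeU2-48, a U2 guide, had 1 wild-type library well above the others, with 15.7, 34.5 and 16.8 CPM beside 19.5, 16.5 and 26.7 CPM in the mutant. MeU2-G25 was at 19.1, 20.8 and 17.2 against 14.7, 16.9 and 18.5 CPM, and MeU2-C41 at 10.8, 11.3 and 12.3 against 13.1, 12.6 and 10.5 CPM. These guides sit in introns of protein-coding genes, among them pit, dmt, hfp, mask and lds.

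At the lower end, MeU4-A65 was at 6.28, 5.07 and 6.46 against 7.89, 5.12 and 4.54 CPM, and PsiU5-44 at 2.31, 2.86 and 3.43 against 1.91, 2.72 and 3.73 CPM. MeU5-U42, MeU2-C28 and a U2 pseudouridylation guide in Gp210 had genotype means between 1.46 and 2.82 CPM. PsiU2-55 is listed as a pair of overlapping transcripts in an intron of Prp8 that share most of their sequence, so their reads cannot be told apart with certainty. Its form of 163 bases had a mean of 0.893 CPM in the mutant and 0.942 in wild type, and the form of 178 bases was not tested. For MeU2-C28 and PsiU2-55 the 95% interval reached past a 2-fold change, so a change of that size was not excluded.

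Or-CD orphans are box C/D RNAs without an assigned target. Of the 11, 9 had a log2 fold change below 0 (median −0.16) and 0 passed the test. The one with the most counts, Or-CD2 (FBtr0091613, chromosome 2R, 9097030 to 9097169, plus strand, in Uhg4), was at 205, 179 and 169 CPM in the mutant and 149, 156 and 175 CPM in wild type (0.20 ± 0.13, edgeR adjusted p = 0.467). Its ranges overlapped, as did those of the other 10 in the series.

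The 3 copies of Or-CD11, each of 67 bases, lie together in RpL28 on chromosome 3L, Or-CD11c in an intron and the other copies overlapping an annotated exon, where reads of the host RNA cannot be told apart from theirs. Or-CD11b was at 201, 116 and 159 CPM in the mutant and 175, 168 and 186 CPM in wild type, and Or-CD11c at 137, 148 and 97.9 against 179, 147 and 146 CPM. The third, Or-CD11a, was at 16.5, 11.4 and 12.8 against 19.2, 14.4 and 15.2 CPM. Within a library Or-CD11b thus held 9.14 to 12.4 times and Or-CD11c 7.66 to 13.01 times the counts of Or-CD11a. These ratios depend on how Salmon divided reads that fit several copies, which was not checked. The log2 fold change of their sum was −0.22 ± 0.15 (edgeR adjusted p = 0.501; 95% interval −0.56 to 0.12). The rarest of the series, Or-CD9a, averaged 0.491 CPM per 100 bases in the mutant and 0.662 in wild type, while its neighbour Or-CD9b averaged 25.4 and 33.9. Both overlap an annotated exon of Nop60B, where reads of the host RNA cannot be told apart from theirs. The division of reads between these copies was not checked either.

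Or-aca orphans are of the box H/ACA class. Or-aca5, in Uhg4 with Or-CD2, was at 83.9, 71.6 and 67.8 CPM in the mutant and 78.6, 77.5 and 87.8 CPM in wild type, and Or-aca3, in RpL4, at 72.8, 74.98 and 63.1 against 59.9, 61.2 and 69.5 CPM. Or-aca4 averaged 28.4 ± 2.47 CPM in the mutant and 31.01 ± 3.84 in wild type (SD, n = 3). The least abundant, Or-aca1 in RpS16, had 2 mutant libraries below wild type, with 6.72, 11.6 and 9.49 CPM against 12.9, 11.4 and 13.04 CPM (log2 fold change −0.43 ± 0.22, edgeR adjusted p = 0.391). The 4 log2 fold changes ran from −0.43 to 0.15.

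Of the other 28 orphans, 15 of the 25 tested had a log2 fold change below 0, with a median of −0.03. The most abundant, nop5-x16-a (FBtr0309766, chromosome 2L, 6917210 to 6917310, minus strand), lies where the genes nop5, for a box C/D core protein, and x16, for a splicing factor, overlap. It was at 299, 256 and 248 CPM in the mutant and 239.9, 252 and 279 CPM in wild type (0.06 ± 0.13, edgeR adjusted p = 0.825). Groups that did not overlap were found for Dek-a and CG32479-a. Dek-a (FBtr0309761, chromosome 2R, 16857413 to 16857578, plus strand), in the gene for a chromatin protein, was at 109.5, 114 and 107 CPM in the mutant and 127, 137 and 138 CPM in wild type (−0.28 ± 0.11, edgeR adjusted p = 0.31).

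CG32479-a (FBtr0309760, chromosome 3L, 891250 to 891475, plus strand) and CG32479-b (FBtr0309775, 890270 to 890490) both lie in Usp10, a gene for a deubiquitinase. CG32479-a was at 55.0, 51.0 and 54.3 CPM in the mutant and 39.4, 47.8 and 37.7 CPM in wild type (0.36 ± 0.14, edgeR adjusted p = 0.31), whereas CG32479-b was at 35.9, 41.4 and 46.2 against 42.2, 48.97 and 46.3 CPM (−0.15 ± 0.15, adjusted p = 0.602). Their ratio within a library was 1.53, 1.23 and 1.17 in the mutant and 0.935, 0.977 and 0.814 in wild type, without overlap. Per 100 bases the means were 23.6 and 18.6 CPM in the mutant and 18.4 and 20.7 CPM in wild type. The exact two-sided permutation p was 0.1, the smallest possible, and 0.6 after adjustment over 12 ratios, and the pair was picked after its values were seen.

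The 4 snoRNAs of lola, the gene for a BTB zinc-finger transcription factor, lie side by side on chromosome 2R between 10536495 and 10537270 on the minus strand. All 4 log2 fold changes were below 0, with a median of −0.31. For lola-a, the most abundant, the libraries stood at 140.2, 149 and 168 CPM in the mutant and 181, 164 and 162 CPM in wild type. For lola-c they stood at 49.6, 65.6 and 60.7 against 100.5, 65.6 and 73.6 CPM (−0.45 ± 0.19, edgeR adjusted p = 0.322). For lola-b they stood at 5.63, 7.67 and 15.8 against 9.27, 15.1 and 14.7 CPM (−0.42 ± 0.37, adjusted p = 0.585), the widest spread of these. Ranges overlapped for each of them. The remaining orphans, snoRNA:M, CG43051-a and Edc3-a among them, included 3 that were not tested, with at most 6 counts in any library across all untested guide RNAs.

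By host gene, 64 of the 77 lie in an intron, 7 overlap an exon of a host and 6 have no host on their strand. The 12 tested RNAs in ribosomal protein genes had a median log2 fold change of −0.24 with 10 below 0, and the 16 in Uhg genes −0.14 with 14 below 0. Those of other protein-coding genes stood at −0.03 (22 of 39 below 0) and those without a host at −0.05 (4 of 6). The unadjusted share of values below 0 over all transcripts was 55.5%, 65.9% without nuclear tRNAs, and 80% for the snoRNAs named for 18S or 28S sites. Hosts with several guide RNAs weigh more in these medians, because 33 of the 77 share a host entry with another, and no difference between host classes was tested.

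Groups that did not overlap were set beside the same count over all transcripts. Mutant levels lay below all wild-type levels for 4 of the 73 (5.48%: U49:66Db, Dek-a, PsiU2-38.40.42 and U29:54Ec), where 10.7% of all transcripts did, and above for 2 (2.74%: CG32479-a and MeU6-C68), where 8.03% did. Without nuclear tRNAs, 12.7% of the transcripts tested lay below and 2.72% above. Among the 170 tested snoRNAs of 18S and 28S sites, 37 lay below and 0 above. No test of that difference between kinds of snoRNA was run.

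The guide RNAs as a whole took a lower share of all listed counts in the mutant, while their share of the snoRNA counts differed little. They made up 0.442%, 0.392% and 0.420% of the listed counts in the mutant and 0.538%, 0.481% and 0.488% in wild type, with no overlap (0.418% ± 0.0249 against 0.503% ± 0.0311, SD). Of all snoRNA counts they held 20.2%, 20.1% and 19.7% in the mutant and 20.4%, 19.8% and 19.6% in wild type, means of 19.99% ± 0.285 and 19.9% ± 0.407 that differed by less than the spread between replicates. The snoRNAs of 18S and 28S sites moved with them, at 1.67% ± 0.0975 of listed counts in the mutant and 2.02% ± 0.0760 in wild type. The tRNA share was 4.32 percentage points higher and the 5.8S rRNA share 7.34 percentage points lower in the mutant. The part of these classes in the share of the guide RNAs was not tested. With the 5.8S rRNA left out of the total, the share was 0.664% ± 0.0542 in the mutant and 0.903% ± 0.0482 in wild type. That difference of −0.239 percentage points is over a smaller total, so its size cannot be set directly beside the −0.0848 of all listed counts.

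Within the guide RNAs, U3 held 24.3%, 26.2% and 27.0% of the counts in the mutant and 26.5%, 24.9% and 23.1% in wild type, overlapping ranges. The RNAs with vertebrate or yeast names held 18.8%, 17.9% and 18.9% against 19.1%, 19.9% and 20.8%, with no overlap by a margin of 19.1 against 18.9. The other kinds overlapped in their shares of the guide RNA counts, among them the guides for snRNAs (5.55% ± 0.0964 and 5.38% ± 0.285) and the Or-CD orphans (13.1% ± 1.34 and 13.1% ± 0.4997).

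**Figure D5:**
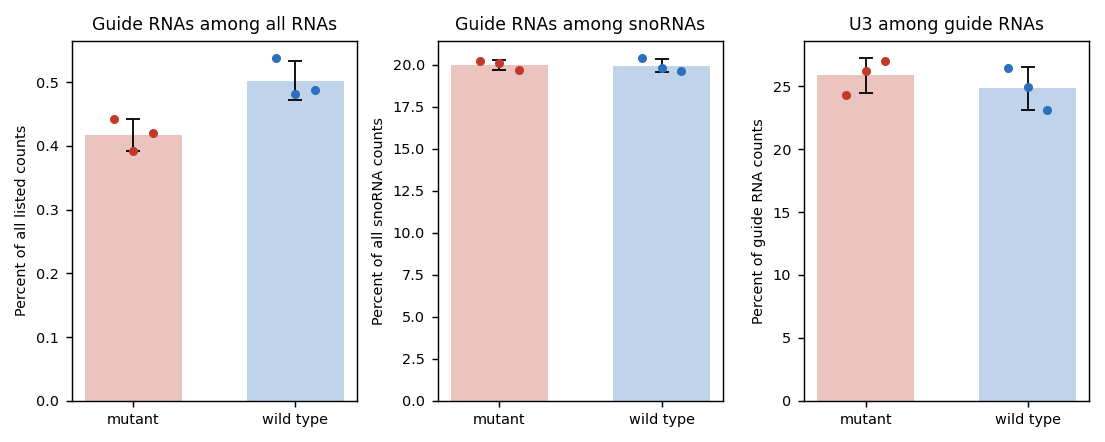
Shares of counts in percent, 1 point per library, mutant red and wild type blue: the guide RNAs among all listed RNAs, the guide RNAs among snoRNAs, and U3 among the guide RNAs. The first separates the genotypes (0.392 to 0.442% against 0.481 to 0.538%), and the other panels do not (19.7 to 20.2% against 19.6 to 20.4%, and 24.3 to 27.0% against 23.1 to 26.5%).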

How the data were processed

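Short RNA was sequenced from midguts of 3 mutant and 3 wild-type samples, grouped by title and genotype label. RNA was selected below 200 nucleotides, which limits recovery of longer RNAs, and demethylated so that modified RNAs could be read. Per the study's methods, reads were quality-checked (FastQC), trimmed (Cutadapt) and assigned with Salmon to an index of all BDGP6 RNAs (release 32), and transcripts below 300 bases were kept and tested with DESeq2. The table deposited by the authors holds Salmon's expected counts as whole numbers without depth scaling. Salmon splits reads that match several copies, so copies of a family were also summed.

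Of the transcripts listed, 527 matched the Ensembl BDGP6 annotation (release 54, same assembly) by identifier and 4 did not. Counts were fitted on the whole table with edgeR (4.0.16, in R 4.3.3), using filterByExpr (minimum count 10, minimum total 15), TMM factors, glmQLFit and glmQLFTest, Benjamini-Hochberg adjustment over 411 transcripts and a threshold of 0.10. Scripts were tested on simulated data. Standard errors were derived from the F statistic, and fold changes are mutant over wild type. Ratios of counts were compared by exact permutation. P-values measure the spread between these samples, which may be technical, since separate cultures or cohorts are not stated. No libraries agreed within sampling noise.

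Alternatives were DESeq2 (1.42.0), limma-voom (limma 3.58.1), other scalings, no filter or 100 counts in 3 libraries, the replicate block and leaving out each library.

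The guide RNAs and lists were chosen with earlier results of these data known. The rule for RNAs given with values took every RNA past the threshold, U3, all guides for snRNAs, the 5 with the highest mean CPM, up to 4 with the largest difference in each direction among those without overlap, and families of 3 or more copies. The U14 copies, U49:66Da, the lola snoRNAs, Or-CD9, Or-aca and CG32479-b were named after their values were seen. The genome sequence was not used here.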

Additional observations from a re-analysis of the deposited data

How the results depend on the processing

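Over 15 alternatives, the guide RNAs had 0 adjusted calls in each but the omission of mutant replicate 3, and leaving out each library in turn gave 0 to 4. Calls over all transcripts were 0 with limma-voom, 30 with DESeq2, 10 with DESeq2 size factors, 16 with library totals, 6 with mitochondrial tRNA scaling, 22 with scaling on the 18S and 28S site snoRNAs, 16 with no filter, 10 with the stricter filter, and 0 to 47 with 1 library left out, beside 5 as reported. Correlations of same-numbered libraries in their deviations from group means were −0.02, −0.26 and −0.20 over all transcripts tested, so the replicate numbers were not taken to pair the samples. The replicate block gave 0 guide RNA calls and 14 over all transcripts, and moved MeU2-C28, whose reported log2 fold change was −0.02, to 0.00024.

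The median log2 fold change of the guide RNAs, −0.09 as reported, was −0.25 with library totals, −0.29 with mitochondrial tRNA scaling and 0.075 with scaling on the 18S and 28S site snoRNAs, where the median over all transcripts moved alike, to −0.22, −0.26 and 0.10. Of the 73 tested guide RNAs, 50 were below 0 as reported. The number was 67 with library totals, 69 with mitochondrial tRNA scaling and 28 with scaling on the 18S and 28S site snoRNAs. The shift between scalings turned the sign of uncalled RNAs near 0, by construction. Signs of single RNAs were compared only for 38 of the RNAs given with values, and those listed next changed. On the log2 scale these were, with library totals, U3:9B −0.025, MeU6-A47 −0.013, MeU4-A65 −0.16, MeU5-G38 −0.15, PsiU1-6 −0.13, PsiU6-40 −0.051, PsiU5-44 −0.12, nop5-x16-a −0.11 and U31:54Eb −0.16, with mitochondrial tRNA scaling, U3:9B −0.063, MeU6-A47 −0.071, MeU2-G25 −0.015, MeU4-A65 −0.18, MeU5-G38 −0.18, PsiU1-6 −0.15, PsiU6-40 −0.068, PsiU5-44 −0.21, nop5-x16-a −0.14 and U31:54Eb −0.20, and with scaling on the 18S and 28S site snoRNAs, U3:54Ab 0.097, MeU5-U42 0.098, MeU2-C28 0.14, MeU2-C41 0.075, MeU2-48 0.039, the U2 guide in Gp210 0.033, PsiU2-55 0.093, U76:54Eb 0.10 and U31:54Ec 0.092. MeU2-C28 became 0.015 with DESeq2, 0.0076 with limma-voom, 0.019 with DESeq2 size factors and 0.021 with no filter. The difference in share was 0.050 percentage points of snoRNA counts and −0.239 of listed counts without the 5.8S rRNA, and paired by replicate number it was −0.0966, −0.0894 and −0.0683 of listed counts, where the mean difference was −0.0848. Differences over unlike totals cannot be compared in size. Fitted alone, U3:9B was at 0.15 where the U3 sum was at −0.04, and U31:54Eb at 0.0011 where the U31 sum was at −0.11.

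Of the 73 tested, 42 were below 0 without mutant replicate 2 and 55 without mutant replicate 1, beside 50 with every library kept. Among the same 38 RNAs, log2 fold changes that changed sign with 1 library left out ranged as follows: MeU4-A65 −0.14 to 0.30, MeU5-G38 −0.066 to 0.11, PsiU2-55 −0.49 to 0.29, nop5-x16-a −0.026 to 0.12, U31:54Eb −0.13 to 0.23, MeU5-U42 −0.29 to 0.20, MeU2-48 −0.31 to 0.36, Or-CD11b −0.36 to 0.053, MeU2-C28 −0.31 to 0.40, PsiU5-44 −0.17 to 0.31, U76:54Eb −0.12 to 0.020, U31:54Ec −0.25 to 0.10, U3:54Ab −0.10 to 0.00100 and PsiU1-6 −0.0050 to 0.098. The 4 RNAs called without mutant replicate 3 kept their sign, over ranges of U49:66Da −0.69 to −0.27, U14:30Ea −0.72 to −0.29, U14:30Eb −0.89 to −0.38 and lola-b −0.95 to −0.14. In 9 of 73 RNAs the interval reached past a 2-fold change, and the part of depth and of replicate spread in this was not tested. The 4 untested RNAs had at most 6 counts in a library.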
